A study of Homo sapiens with 20 samples.

Results

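Definitive endoderm (DE) and neuroectoderm (NE) cells were compared for the contacts that captured poised-enhancer fragments made within their own chromosome. Members were the listed contacts with both ends on 1 chromosome and an interaction score of at least 5, the calling threshold, in DE or NE. There were 58492 of them, among 182303 listed contacts within chromosomes and 766138 in all. DE had 29563 and NE 32672. Both populations came from HNES1, an established human naive embryonic stem cell line, after 14 days of naive-to-primed transition. DE cells were then given Activin A, CHIR99021, FGF2, PI-103, BMP4 and heparin for 1 day, followed by Activin A, PI-103, FGF2, LDN193189 and heparin for 2 days. NE cells were kept for 10 days in N2B27 medium with A8301 and LDN193189 and sorted as CD56+ EpCAM- cells, while whether DE cells were sorted is not given in the sources used here. The BMP receptor inhibitor LDN193189 was thus used in both protocols, A8301, a blocker of Activin and Nodal receptors, in the NE protocol, and CHIR99021, which activates WNT signalling, in the DE protocol. Each condition had 2 libraries whose reads the labels assign to 1 score column, so no spread between libraries and no test between DE and NE could be had. Wilson 95% intervals are given for shares and cover counting error only. They take calls as independent, though several calls can come from 1 bait. Where DE is given as a share of the calls of the lineages, shared contacts also count in each. The other 8 conditions were naive HNES1, HNES1 at day 1, day 3, day 5, day 7, day 10 and day 14, and H9, an established primed embryonic stem cell line.

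Poised enhancers are regulatory elements that pluripotent cells keep under Polycomb's repressive histone mark, often near genes that are used later in development. Polycomb-bound elements and promoters can touch each other in the nucleus over long distances, and capture Hi-C reads such contacts as ligation products between a captured fragment (the bait) and another fragment (the other end). Definitive endoderm, the source of gut, liver, pancreas and lung, forms under Nodal/Activin and WNT signals, whereas neuroectoderm forms where Nodal and BMP signals are blocked. Baits here had a median length of 629 bp and other ends 5264 bp. The assay measures contacts and not expression, so the identity of the cells could not be checked against transcripts of marker genes.

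Promoters of 6 genes that recur below are shown because the fragments that carry them, or lie beside them, gave contacts in 1 lineage, more contacts in 1 lineage, or in both. They are RefSeq sequences on GRCh38.p14, 250 bases before to 50 after a start site of the gene. They read 5′ to 3′ on the gene's strand, with every CG dinucleotide in capitals. For RPH3A that start site lies inside the gene, which is annotated from 112575236 to 112898881, and not at its outer end. WNT4 encodes a WNT ligand and GNAO1 the alpha subunit of a G protein abundant in brain, and both had more contacts in DE. ALDH1A2 makes retinoic acid, NEUROG1 is a proneural transcription factor and RPH3A is a protein of synaptic vesicles, and these 3 had more contacts in NE. DKK1, a secreted WNT antagonist, had many contacts in both.
WNT4 (chr1:22143048-22143347, minus strand): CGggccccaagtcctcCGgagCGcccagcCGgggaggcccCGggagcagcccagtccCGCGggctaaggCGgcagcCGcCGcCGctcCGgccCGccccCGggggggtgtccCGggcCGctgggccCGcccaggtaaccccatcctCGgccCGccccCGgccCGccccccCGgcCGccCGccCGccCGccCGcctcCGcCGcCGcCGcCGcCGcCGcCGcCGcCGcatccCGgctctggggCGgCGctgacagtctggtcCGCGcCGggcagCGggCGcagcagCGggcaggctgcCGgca
GNAO1 (chr16:56191239-56191538, plus strand): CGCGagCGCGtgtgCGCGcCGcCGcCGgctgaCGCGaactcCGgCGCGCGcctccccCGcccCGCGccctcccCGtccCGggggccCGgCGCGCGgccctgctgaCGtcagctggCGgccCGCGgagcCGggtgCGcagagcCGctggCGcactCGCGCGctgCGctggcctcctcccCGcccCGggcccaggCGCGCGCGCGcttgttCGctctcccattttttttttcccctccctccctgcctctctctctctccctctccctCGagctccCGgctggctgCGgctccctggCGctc
ALDH1A2 (chr15:58065662-58065961, minus strand): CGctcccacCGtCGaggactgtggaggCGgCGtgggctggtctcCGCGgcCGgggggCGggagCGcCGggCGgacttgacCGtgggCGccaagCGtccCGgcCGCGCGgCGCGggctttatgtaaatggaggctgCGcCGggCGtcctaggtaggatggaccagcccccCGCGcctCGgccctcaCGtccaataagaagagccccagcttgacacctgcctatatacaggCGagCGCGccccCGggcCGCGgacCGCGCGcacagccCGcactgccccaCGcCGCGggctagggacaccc
NEUROG1 (chr5:135535915-135536214, minus strand): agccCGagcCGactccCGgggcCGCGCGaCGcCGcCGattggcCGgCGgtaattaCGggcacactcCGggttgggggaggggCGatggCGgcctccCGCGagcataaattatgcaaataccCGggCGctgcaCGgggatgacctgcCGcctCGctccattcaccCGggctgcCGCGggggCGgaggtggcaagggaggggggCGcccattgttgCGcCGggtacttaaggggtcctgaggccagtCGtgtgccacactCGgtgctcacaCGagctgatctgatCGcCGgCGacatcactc
RPH3A (chr12:112791498-112791797, plus strand): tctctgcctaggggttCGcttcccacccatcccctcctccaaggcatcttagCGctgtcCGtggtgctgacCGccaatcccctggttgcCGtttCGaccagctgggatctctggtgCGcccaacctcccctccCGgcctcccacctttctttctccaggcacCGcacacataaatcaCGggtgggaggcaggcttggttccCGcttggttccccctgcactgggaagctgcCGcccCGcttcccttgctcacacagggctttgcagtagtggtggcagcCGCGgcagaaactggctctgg
DKK1 (chr10:52314031-52314330, plus strand): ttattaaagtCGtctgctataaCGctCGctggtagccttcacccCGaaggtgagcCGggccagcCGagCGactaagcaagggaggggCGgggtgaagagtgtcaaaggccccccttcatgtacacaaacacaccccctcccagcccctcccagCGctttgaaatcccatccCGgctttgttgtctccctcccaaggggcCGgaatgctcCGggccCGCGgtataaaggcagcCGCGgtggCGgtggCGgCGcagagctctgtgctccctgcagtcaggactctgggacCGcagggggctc

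The WNT4 stretch held 47 CG dinucleotides, GNAO1 48, ALDH1A2 41, NEUROG1 35, RPH3A 15 and DKK1 20, against a median of 22 over 15767 promoters. Motif CG (its own reverse complement, searched once) occurred in 98.1% of those promoters. By class of gene, the median was 24 CG for genes with contacts in DE only, 24 for genes with contacts in NE only, 26.5 for genes with contacts in both, 23 for genes linked to listed contacts but called in neither, and 20 for genes not linked. The one-lineage classes thus had equal medians, with quartiles of 14 and 34 for DE only and of 11 and 34 for NE only. Captured fragments were designed around poised enhancers, and the part of that design in the lower median of unlinked genes was not tested.

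Most contacts were called in 1 of the lineages. Of the listed contacts within chromosomes, 25820 (14.2%) were called in DE only, 28929 (15.9%) in NE only and 3743 (2.05%) in both. Shared contacts made up 12.7% of the DE calls (interval 12.3 to 13.0%) and 11.5% of the NE calls (11.1 to 11.8%), and the Jaccard index, the shared part of all contacts called in either, was 0.0640. NE had more calls at this threshold, so the 29563 top-scoring contacts of each column were set side by side, which put the lowest NE score at 5.12. That gave 25998 contacts in DE only (14.3%), 25998 in NE only (14.3%) and 3565 in both (1.96%), so 12.1% of each set was shared. At a score of 10 or more there were 619 in DE only (0.34%), 853 in NE only (0.468%) and 190 in both (0.104%), a Jaccard index of 0.114.

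The lineage without the call had a low score at most contacts and no score at a part of them. Contacts of DE only had a median DE score of 5.74 and a median NE score of 1.30, and contacts of NE only had a median NE score of 5.78 and a median DE score of 1.22. The other lineage's score was 0 for 25.7% of the DE-only and 28.3% of the NE-only contacts, and under 1 for 42.6% and 43.8% of them. It lay between 4 and 5, just short of a call, for 7.81% of the DE-only and 7.55% of the NE-only contacts. Many calls also lay close to the threshold on its upper side: 10571 DE calls and 11294 NE calls scored under 5.5, with 3173 DE and 3239 NE contacts listed between 4.5 and 5. The lowest called score was 5.00 in both columns.

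Sharing went up with the score. Of DE calls between 5 and 6, 7.67% were also called in NE, and this share was 14.3% between 6 and 8, 28.6% between 8 and 10, and 57.8% (54.4 to 61.2%) at 10 or more. Of NE calls the shares also called in DE were 7.07%, 12.5%, 23.6% and 51.2% (48.2 to 54.2%) in the same 4 ranges. Shared contacts had median scores of 6.65 in DE and 6.64 in NE, and 12.5% of them reached 10 in DE, against 1.32% of the DE-only contacts in DE and 1.76% of the NE-only contacts in NE. Since a call is itself a cut on the score, these medians describe the classes and are not independent of how they were drawn.

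**Figure D1:**
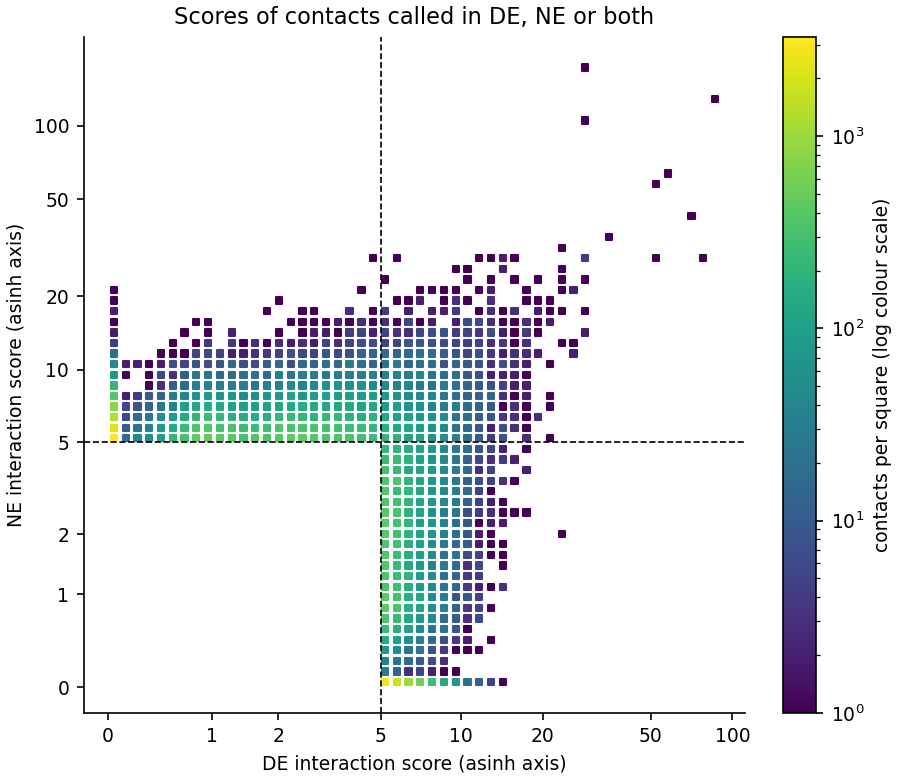
Each square counts the contacts within chromosomes at that pair of scores, with the DE interaction score across and the NE interaction score upward (both on an asinh axis) and the number of contacts on a log colour scale. The dashed lines mark the calling score of 5, and most contacts lie beyond one line only, many at a score of 0 in the other lineage, and 3743 lie beyond both.

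Distance separated the classes little. Median distance was 221 kb for DE only, 225 kb for NE only and 196 kb for both. Under 100 kb DE made up 49.0% (48.1 to 49.95%) of the calls of the lineages, where shared contacts count in each, and between 100 and 250 kb it made up 47.0% (46.4 to 47.7%), against 47.5% at all distances. Over 1 Mb there were 202 contacts in DE only, 237 in NE only and 49 in both. By chromosome the DE share ran between 43.2% (39.3 to 47.2%) on chromosome 21 and 50.5% (48.4 to 52.6%) on chromosome 15, over chromosomes with more than 10 calls.

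Many one-lineage contacts had a call of the other lineage from the same bait. The bait had at least 1 call in NE for 72.9% of the DE-only contacts, and at least 1 call in DE for 70.9% of the NE-only contacts. From the same bait, NE had a called other end within 10 kb for 12.1% of the DE-only contacts and within 50 kb for 38.3%. DE had one within 10 kb for 11.6% of the NE-only contacts and within 50 kb for 37.2%. Differences between single contacts are therefore finer than differences between baits.

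One-lineage contacts were called in each of the other 8 conditions less often than listed contacts at large. Of the DE-only contacts, 4.39% were called at day 14, the state from which both lineages were made, and between 3.34% (naive) and 5.31% (H9) over the 8. Of the NE-only contacts, 4.75% were called at day 14, and between 3.71% (day 1) and 5.45% (H9) over the 8. Shared contacts were called at day 14 in 24.7% (23.3 to 26.1%) and in 19.9 to 26.9% over the 8. Of all listed contacts within chromosomes, 10% were called in naive cells, 10.1% at day 1, 12.4% at day 3, 11.7% at day 5, 10.2% at day 7, 10.3% at day 10, 11.2% at day 14 and 13% in H9. Every listed contact is called in at least 1 condition, so those called in neither lineage had to be called among the 8. In none of the 8 conditions were 79.6% of the DE-only, 78.3% of the NE-only and 33.98% of the shared contacts called. In all 8, 2 DE-only, 6 NE-only and 61 shared contacts were called.

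**Figure D2:**
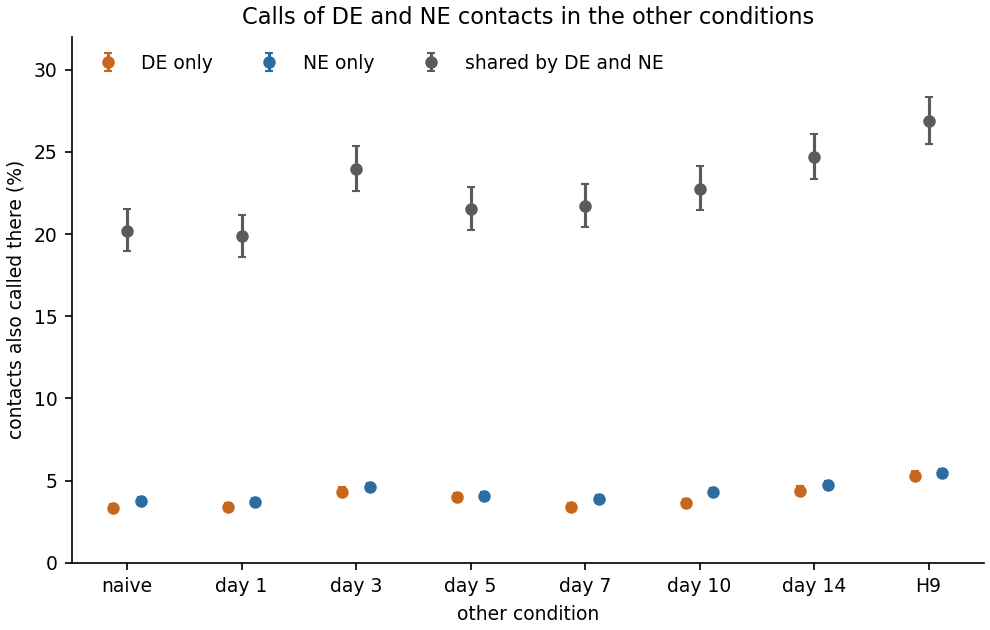
Share of contacts (%) that were also called in each of the other 8 conditions, for contacts of DE only, NE only and both; bars are Wilson 95% intervals, which cover counting error only. DE-only and NE-only contacts stay between 3.34% and 5.45% in every condition, and shared contacts lie between 19.9% and 26.9%.

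With the top 18272 contacts taken from each column, the number called in naive cells, DE shared 12.3% (11.9 to 12.8%) of its contacts with NE, 9.01% (8.61 to 9.44%) with H9 and 8.18% (7.79 to 8.58%) with day 14. NE shared 9.34% (8.93 to 9.77%) with H9 and 8.82% (8.41 to 9.24%) with day 14. The overlap between the lineages was thus the largest of the 17 that involve DE or NE, and naive cells had the smallest with DE, 6.82% (6.46 to 7.19%). DE and NE were also the columns with the most calls (29563 and 32672, against 18272 to 23764 in the other 8), and the part of depth or of library preparation in the overlap was not tested.

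Single contacts with the largest gap between the lineages lay near developmental genes in both directions. A bait 194.9 kb from its other end, at SHISA8 on chromosome 22 (chr22:41908149-41910955), scored 13.5 in DE and 0 in NE. A bait nearest ONECUT2, which encodes a transcription factor of liver and pancreas (chr18:57439314-57439539), scored 13.1 in DE and 0 in NE over 701 kb. Its other end lay nearest WDR7, and ONECUT2 itself had 2 contacts in DE and 2 in NE. From a bait nearest PARP8 (chr5:50965573-50966246), an other end nearest ISL1, a LIM homeobox gene of motor neurons and heart, scored 12.3 in DE and 0 in NE. These single contacts, of the baits at SHISA8, nearest ONECUT2 and nearest PARP8, had scores of at most 4.42 in any of the other 8 conditions.

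On the NE side, a bait nearest OLFM1 (chr9:135086372-135086562) scored 0 in DE and 21.3 in NE, and 0 in all other conditions. A bait nearest PJA1 touched the start of EFNB1, which encodes an ephrin ligand (chrX:68824157-68829362), with 0 in DE and 18.2 in NE, and 5.501 at day 14. From a bait nearest EN2, a midbrain and hindbrain homeobox gene (chr7:155482024-155483502), an other end nearest SHH, the hedgehog ligand of the floor plate, scored 0 in DE and 12.4 in NE. EN2 itself had 1 contact in DE and 1 in NE. A bait nearest DLX2, a forebrain homeobox gene (chr2:172234626-172235423), scored 0 in DE and 12.04 in NE with an other end nearest ITGA6. All 4 were far above the calling score in NE and had no score in DE. The DLX2 locus also had a shared contact: another bait nearest DLX2 (chr2:172171909-172172112) scored 17.2 in DE and 19.0 in NE with another fragment nearest ITGA6.

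Of the 10 shared contacts with the highest scores, 9 lay on chromosomes 1 and 16 and spanned more than 1 Mb, and a score of 28.46 recurred between conditions and fragment pairs. These values are reported as deposited, and what set them was not tested. Within 1 Mb the highest was a contact over 360 kb between a bait nearest MASP1 (chr3:187319012-187319399) and an other end nearest SST, the gene of the hormone somatostatin, with 33.96 in DE, 35.9 in NE, 31.0 at day 14 and 11.8 in naive cells. A bait inside GATA4, an endoderm and heart transcription factor gene, touched BLK with 23.2 in DE and 33.2 in NE, against 17.6 at day 14. A bait inside AKAP12 (chr6:151324975-151325392) scored 25.03 in DE and 22.2 in NE with an other end nearest MTHFD1L, and a bait nearest MEIS2, a partner of HOX proteins (chr15:36881956-36883061), scored 22.7 in DE and 21.5 in NE. These shared contacts were called at day 14 too, at 13.0 for AKAP12 and 27.5 for MEIS2.

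Of 25252 baits with listed contacts within chromosomes, 4925 (19.5%) had calls in DE only, 5541 (21.9%) in NE only and 9028 (35.8%) in both. With equal numbers of top-scoring contacts these were 5391, 5108 and 8562, so NE no longer had the larger one-lineage set. A single contact made 71.2% of the DE-only and 66.6% of the NE-only baits, and 43 DE-only and 92 NE-only baits had 5 or more. Of the baits called in both, only 2306 (25.5%) had even 1 contact with the same other end in both. At the calling score, 199 of the 25252 baits had a difference of 5 contacts or more with more in DE, and 349 with more in NE. Baits were not counted in this way with equal numbers of top-scoring contacts. Of 9189 linked genes, 37 had such a difference with more in DE and 96 with more in NE. With equal numbers of top-scoring contacts these were 50 and 70 genes.

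The widest DE excess was at a bait on chromosome 1 (chr1:229013623-229014730) with 27 contacts in DE and 4 in NE, none shared. Its nearest gene start, that of RAB4A, lay 257 kb away. It had 6 contacts at day 14, 8 in naive cells and 21 in H9. A bait 0.837 kb from an annotated end of FZD7, a WNT receptor gene (chr2:202038919-202039636), had 37 in DE and 22 in NE, with 15 of them shared, against 10 at day 14. A bait inside HOXC11 (chr12:53975896-53978215) had 19 in DE and 7 in NE, and a bait inside PAX2, a kidney and midbrain transcription factor gene (chr10:100816374-100817571), had 14 in DE and 3 in NE. Baits beside NTF3, the gene of a neurotrophin (chr12:5429026-5429197), and inside PRMT8 (chr12:3489504-3490407) had 20 and 21 in DE and 9 and 10 in NE.

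The widest NE excess was at the bait inside AKAP12, a scaffold of protein kinase A, with 18 contacts in DE and 38 in NE, 15 of them shared, against 22 at day 14. A bait inside CACNA1G, a calcium channel gene of neurons (chr17:50562491-50564105), had 3 in DE and 19 in NE, against 4 at day 14. A bait inside LAG3, an immune receptor gene (chr12:6773287-6774417), had 4 in DE and 18 in NE, and one inside NCKAP1L (chr12:54527054-54528073) 2 in DE and 16 in NE, each with 11 at day 14. A bait nearest TBCA in the OTP region (chr5:77843287-77844157) had 5 in DE and 16 in NE, and 17 at day 14. With equal numbers of top-scoring contacts for the lineages it had 5 in DE and 12 in NE. Baits called in 1 lineage only reached 9 contacts: one beside GNAO1 (chr16:56189580-56190567) had 9 in DE and 0 in NE, and one inside TMEM135 (chr11:87081926-87082354) had 0 in DE and 9 in NE. One inside DRD2, a dopamine receptor gene (chr11:113473544-113473990), had 0 in DE and 8 in NE.

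**Figure D3:**
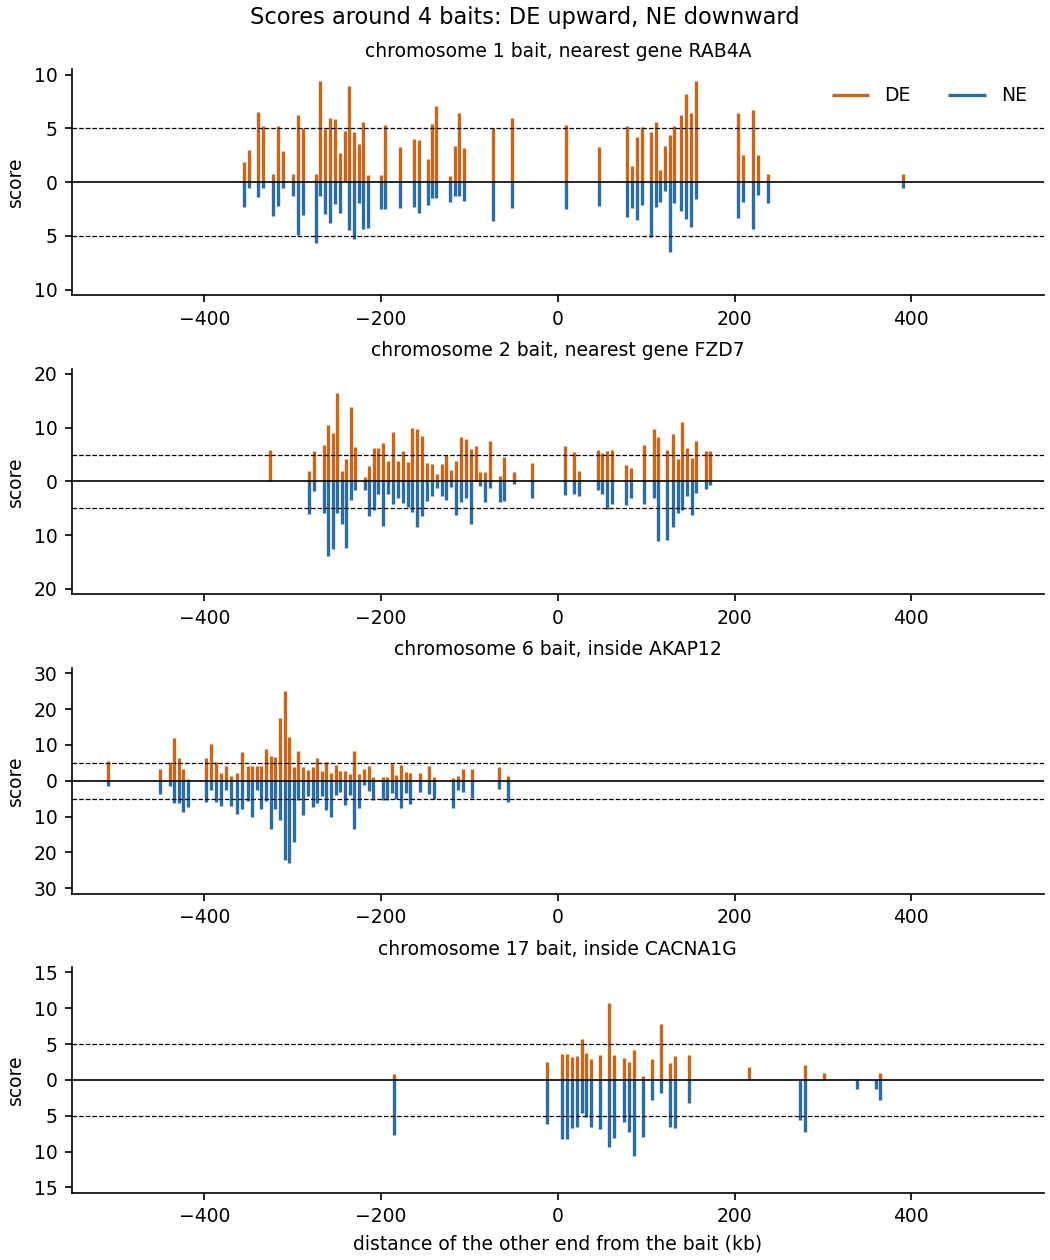
Interaction scores of the listed contacts of 4 baits by distance of the other end from the bait in kb, with DE upward and NE downward; the dashed lines mark the calling score of 5. At the chromosome 1 bait 27 DE and 4 NE scores pass the line, at FZD7 37 and 22, at AKAP12 18 and 38, and at CACNA1G 3 and 19; many contacts that miss the line in one lineage still have a score there.

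Pairs in which both fragments were baits numbered 276 in DE only, 282 in NE only and 30 in both, each pair counted once. At day 14, 8 of the DE-only (2.90%), 9 of the NE-only (3.19%) and 10 of the 30 shared pairs (33.3%) were called. Over all contacts within chromosomes these shares were 4.39%, 4.75% and 24.7%, so the order was not particular to bait pairs. On chromosome 5, 2 baits nearest IRX1, a homeobox gene, scored 11.9 in DE and 0 in NE, and also 0 in naive, day 14 and H9 cells (chr5:3599428-3599613 and chr5:4212774-4213640). IRX1 itself had 0 contacts in DE and 1 in NE. On chromosome 4, a bait nearest FBXO8 and one nearest HAND2, a heart and autonomic neuron factor gene, scored 0 in DE and 11.5 in NE (chr4:174214341-174214579 and chr4:173499817-173500244). HAND2 itself had 3 contacts in DE and 4 in NE. Shared pairs included baits nearest KCNQ1, a potassium channel gene, and CDKN1C, an imprinted cell-cycle inhibitor gene, on chromosome 11 with 10.8 in DE and 8.31 in NE, and MEIS2 with 6.88 in DE and 7.02 in NE.

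Windows of 500 kb that held both ends of a contact numbered 3783, and 490 (13%) had calls in DE only, 463 (12.2%) in NE only and 2092 in both. Of the one-lineage windows, only 14 in DE only and 19 in NE only had 5 or more contacts. The HOXB window on chromosome 17 (48500001 to 49000000) had the largest DE excess, with 93 contacts in DE and 68 in NE, 23 of them shared, and 102 at day 14. That rank depended on the window size: the window of 1 Mb around it (48000001 to 49000000) had 214 in DE and 207 in NE and ranked 71 of 2419. Next came a window on chromosome 1 (156000001 to 156500000) that holds LMNA and MEF2D, with 61 in DE and 37 in NE, and 26 at day 14. A window with ST8SIA2, a polysialic acid enzyme gene of developing neurons, on chromosome 15 (92000001 to 92500000) had 25 in DE and 9 in NE. The window of PDX1, CDX2 and GSX1 on chromosome 13 (27500001 to 28000000) had 51 in DE and 37 in NE, with 1 shared.

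The PAX3 window on chromosome 2 (222000001 to 222500000), named for a neural crest and muscle factor, had the largest NE excess, with 97 in DE and 125 in NE, and 89 at day 14. PAX3 itself had 0 contacts in DE and 0 in NE, and the window also holds RNF228 and SGPP2. The window of 1 Mb around it (222000001 to 223000000) had 164 in DE and 185 in NE and ranked 10, and a window on chromosome 6 (41000001 to 42000000) had the largest NE excess at that size, with 102 in DE and 148 in NE. A window on chromosome 12 (57500001 to 58000000) with DDIT3 and CDK4 had 28 in DE and 54 in NE, and the OTP window on chromosome 5 (77500001 to 78000000) 59 in DE and 84 in NE, and 112 at day 14. OTP itself had 1 contact in DE and 1 in NE. A window on chromosome 13 (45500001 to 46000000) with SIAH3 had 7 in DE and 32 in NE. The window with the largest number of shared contacts was that of HOXC on chromosome 12 (54000001 to 54500000), with 210 in DE and 208 in NE, of which 74 were the same. The GATA4 window had 94 in DE and 93 in NE, 29 of them shared. With equal numbers of top-scoring contacts the HOXC window had 210 in DE and 196 in NE, and the GATA4 window 94 in DE and 88 in NE. Totals near-equal at the calling score still held other ends called in 1 lineage only. Over all contacts within chromosomes 12.7% of the DE calls were shared, and these windows, picked for their shared contacts, lay above that.

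Genes were linked where their start lay in, or within 1 kb of, a bait or an other end, and by either annotated end for genes whose start was not in the promoter table used. This linked 9189 protein-coding genes. FZD7, HOXC11, LAG3, SOX17, GATA4, FOXC2 and FOXL1 are among those linked by an end. A gene had a mean of 0.907 contacts in DE and 1.01 in NE. More contacts in DE were found for 2160 genes (23.5%) and more in NE for 2522 (27.4%). With equal numbers of top-scoring contacts the counts were 2309 and 2275. Counts of named genes, baits and windows are at a score of 5 unless stated otherwise, where NE had more calls in all. Contacts in DE only were found for 1484 genes (16.1%), in NE only for 1641 (17.9%) and in both for 2332 (25.4%), while 595 (6.48%) had at least 1 shared contact. A single contact made 79.4% of the DE-only and 77.9% of the NE-only genes.

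FZD7, a receptor for WNT ligands, had the widest DE excess of all genes, with 37 contacts in DE and 23 in NE, 15 of them shared. Scores of its 22 DE-only contacts had a median of 6.32 in DE and 2.40 in NE, and those of its 8 NE-only contacts a median of 3.35 in DE and 6.33 in NE. SH3PXD2A, a podosome scaffold, had 20 in DE and 10 in NE, CRACR2A had 13 in DE and 3 in NE, and PLPPR1 had 12 in DE and 3 in NE. GNAO1 had 9 in DE and 0 in NE, all from 1 bait beside its start and 58.9 to 260 kb away. Their scores ran between 5.15 and 7.01 in DE and between 0.345 and 4.11 in NE. All 9 thus had some NE score, with a median of 1.80. Other genes with contacts in DE only were KLHL14, PIWIL4 and SLC6A5, a glycine transporter gene, with 6 each.

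LAG3 had the widest NE excess, with 10 contacts in DE and 22 in NE, 2 of them shared. SST had 12 in DE and 23 in NE, with 7 shared, and BEST2, an anion channel gene, 2 in DE and 13 in NE. ALDH1A2 had 6 in DE and 16 in NE, with 1 shared. Of its 15 NE-only contacts the median score was 1.64 in DE and 5.79 in NE, and they reached 95.96 to 506 kb from 2 neighbouring baits (chr15:58064106-58064725 and chr15:58064726-58065467). From the third bait, which holds the whole promoter shown above, 2 contacts were called in DE and 0 in NE. The one shared ALDH1A2 contact scored 6.76 in DE, 8.62 in NE and 3.64 at day 14. GPR83 had 1 in DE and 10 in NE. RPH3A, linked by the inner start site shown above, had 0 in DE and 8 in NE. Its contacts had NE scores of 5.27 to 7.08 and DE scores of 0 to 4.95, so 1 of the 8 just missed a call in DE. AMER3 and SLC45A1 had 0 in DE and 7 in NE.

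Shared contacts were most numerous at FZD7 and at ZNF385A, each with 15. ZNF385A had 28 in DE and 33 in NE. ST3GAL5, the gene of an enzyme that makes the ganglioside GM3, had 17 in DE and 18 in NE, with 12 shared. ADAMTS8, NBPF1 and PCDHB1 had 11 shared each and CH25H and DKK1 8 each. NBPF1 has near-identical copies elsewhere and its contacts reached up to 129443 kb, so its counts are uncertain. DKK1 had 23 in DE and 18 in NE, from 5 baits at its start, and the bait that contains the promoter shown above gave 6 of its contacts.

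**Figure D4:**
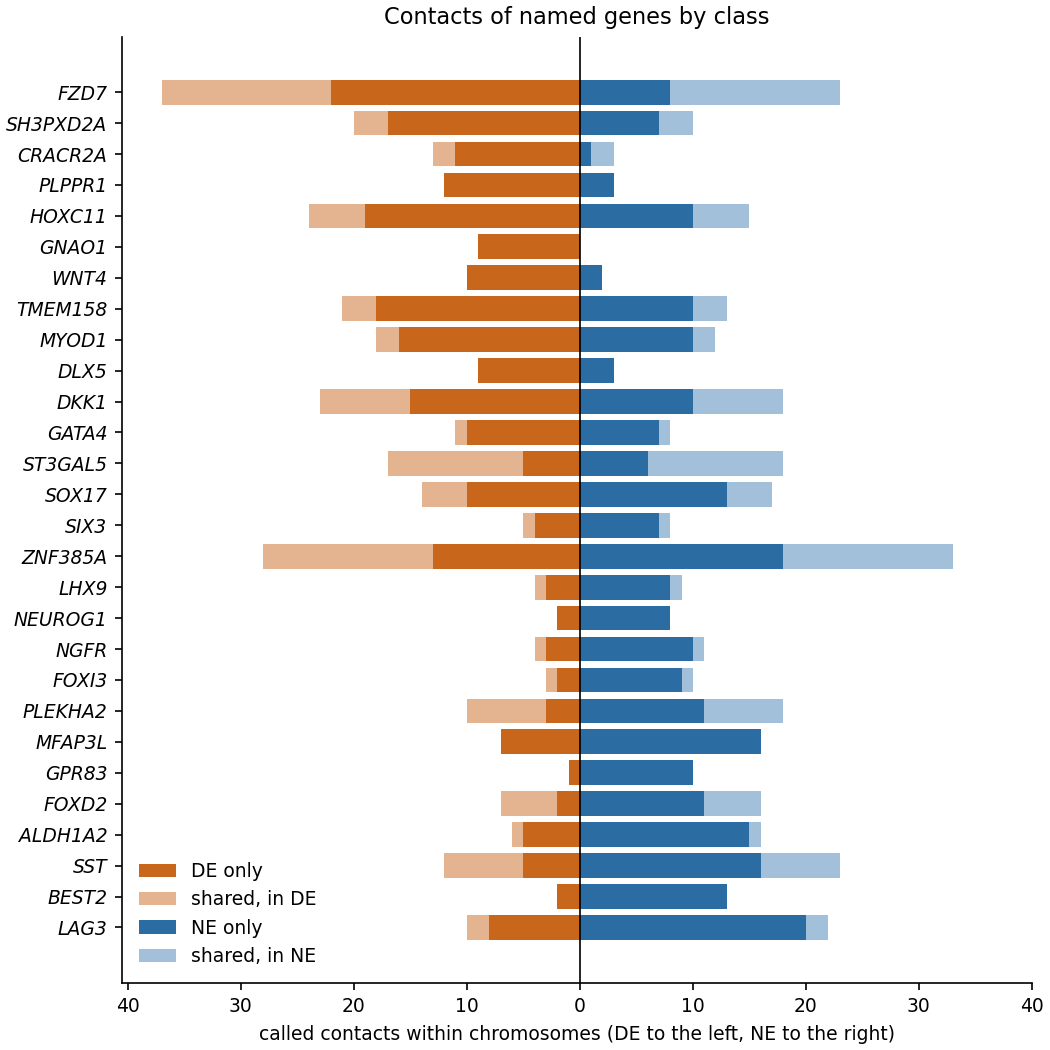
Called contacts within chromosomes for 28 genes, drawn left for DE and right for NE, with one-lineage contacts in dark and shared contacts in light colour; genes are ordered by DE minus NE. FZD7 reaches 37 in DE and 23 in NE, GNAO1 has 9 in DE alone, and LAG3 reaches 10 in DE and 22 in NE.

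Genes of definitive endoderm had no DE excess at the calling score. Over the 15 linked members the mean was 2.80 contacts in DE and 3.27 in NE, with 2 having more in DE, 6 more in NE and 3 the same. SOX17, an endoderm transcription factor gene, had 14 in DE and 17 in NE, with 4 shared. FOXA2 had 8 in DE and 9 in NE, but 8 in DE and 6 in NE with equal numbers of top-scoring contacts. GATA4 had 11 in DE and 8 in NE, GATA6 and HHEX 1 in each lineage, and CER1, a Nodal and BMP antagonist, 5 in DE and 4 in NE. PRDM1 had 1 in DE and 5 in NE. With equal numbers of top-scoring contacts the means were 2.80 in DE and 2.87 in NE, and at the other end alone 0.400 in DE and 0.267 in NE, the opposite order. With either annotated end used for every gene the difference was 0.

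Genes of endoderm-derived organs had means of 1.74 in DE and 1.47 in NE, with 5 of 19 having more in DE and 3 more in NE. NKX2-2, a gene of pancreatic islets and ventral neural tube, had 8 in DE and 4 in NE. PDX1, the pancreas master gene, had 2 in DE and 4 in NE, and CDX2, an intestinal factor gene, 3 in each. Of 10 linked genes of mesendoderm and Nodal signalling, 3 had more in DE and 2 more in NE. That list rests on WNT3, with 4 in DE and 0 in NE at scores of 5.08 to 5.54 in DE; without it the 9 others had 3 in DE and 3 in NE. NODAL had 0 in DE and 1 in NE, and LEFTY1 1 in DE and 0 in NE.

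Neuroectoderm genes had means of 1.40 in DE and 1.73 in NE, with 7 of 30 having more in DE, 11 more in NE and 6 the same. The order turned to 93 contacts in DE and 84 in NE when either annotated end was used for every gene. LHX9, a LIM homeobox gene, had 4 in DE and 9 in NE, and of its 8 NE-only contacts 6 had a DE score of 0. SIX3, an eye and forebrain gene, had 5 in DE and 8 in NE, with 1 shared contact at 7.30 in DE, 6.25 in NE and 1.68 at day 14. MEIS2 had 7 in DE and 10 in NE, with 5 shared, and 12 baits between 202 and 222 kb away reached the fragment at its start (chr15:37097305-37103164). Against that order, SOX1 had 2 in DE and 0 in NE, at scores of 6.92 and 11.4 in DE, and SOX2 1 in DE and 0 in NE. POU3F3 had 2 in DE and 0 in NE, and NCAM1, which encodes CD56, 3 in DE and 1 in NE.

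Genes of regional neural patterning had nearly equal means, 2.38 in DE and 2.35 in NE, with 11 of 37 having more in DE and 13 more in NE. With equal numbers of top-scoring contacts the means were 2.38 in DE and 1.95 in NE, while with either annotated end for every gene the list had 119 contacts in DE and 126 in NE. DLX5, a homeobox gene of forebrain and branchial arches, had 9 in DE and 3 in NE. EN1 had 4 in DE and 8 in NE, and BARHL1 2 in DE and 6 in NE. Proneural and neuronal genes had means of 2.56 in DE and 2.83 in NE, but 21 contacts in DE and 19 in NE once a score under 1 was required in the other lineage. NEUROG1 had 2 in DE and 8 in NE from 3 baits around the promoter shown above, and its highest NE score, 10.8 at a fragment 35.3 kb away, stood beside 3.89 in DE and 3.47 at day 14. ISL1 had 10 in DE and 6 in NE, with 2 shared. Neither direction was general in these lists.

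Neural crest genes had more contacts in NE at the calling score. Of 16 linked members 2 had more contacts in DE and 8 more in NE, with means of 1.44 in DE and 2.56 in NE. DE held 35.9% (25.3 to 48.2%) of the calls of the lineages in this list, against 47.3% over all linked genes. NGFR, a neurotrophin receptor gene, had 4 in DE and 11 in NE, ETS1 1 in DE and 5 in NE and TWIST1 1 in DE and 5 in NE. SNAI2 had 11 in each lineage and none shared, and 11 in DE and 9 in NE with equal numbers of top-scoring contacts. Without NGFR the list had 19 contacts in DE and 30 in NE. At a score of 3 or more it had 49 in DE and 55 in NE, a DE share of 47.1% and so near the 47.3% of all linked genes, and at a score of 10 or more the difference was 0.

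Forkhead genes had means of 2.18 in DE and 2.89 in NE, with 7 of 28 having more in DE and 12 more in NE. FOXD2 had 7 in DE and 16 in NE, FOXI3 3 in DE and 10 in NE and FOXL1 1 in DE and 7 in NE. FOXC2 went the other way, with 9 in DE and 4 in NE at fragments within 1 kb of its annotated ends, while a bait 2.54 kb from it (chr16:86563806-86564767) had 21 in DE and 35 in NE. Neighbouring fragments at 1 gene thus pointed in opposite directions. With the gene at the other end alone, the order of the list means turned, by 0.0357 contacts per gene.

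WNT pathway genes had more contacts in DE, with means of 3.28 in DE and 2.39 in NE. Of 36 linked members 17 had more in DE and 9 more in NE, and DE held 57.8% (51.0 to 64.4%) of their calls. That interval takes calls as independent, though shared contacts count in each lineage and many calls came from FZD7. Among ligands, WNT4 had 10 in DE and 2 in NE and WNT3 4 in DE and 0 in NE, and WNT1 and WNT2B had 2 in DE and 0 in NE. WNT10B went the other way, with 2 in DE and 6 in NE. Among receptors, FZD7 made up 37 of the DE and 23 of the NE contacts of the list, FZD4 had 6 in DE and 4 in NE, and FZD10 had 6 in each. Among antagonists, DKK1 had 23 in DE and 18 in NE and DKK2 4 in DE and 3 in NE, while SFRP5 had 2 in DE and 3 in NE. Without FZD7 the list had 81 contacts in DE and 63 in NE, a share of 56.3% for DE. With the gene at the other end alone the list had 9 in DE and 8 in NE, and with a score under 1 required in the other lineage 55 in DE and 44 in NE.

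The WNT4 contacts came from the bait that contains its whole promoter (chr1:22142121-22144213), apart from 1 NE contact of the fragment beside it. The 10 DE-only contacts had DE scores of 5.05 to 10.5 and NE scores of 0 to 3.80. The highest, over 255 kb (chr1:22395740-22401042), scored 10.5 in DE and 3.23 in NE, against 0.945 at day 14, 0 in naive cells and 7.85 in H9. Both NE-only contacts fell among the DE-only ones, with NE scores of 5.73 and 5.78 and DE scores of 2.23 and 1.81. The other ends of the lineages at WNT4 were therefore interleaved.

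Other signalling genes had means of 1.75 in DE and 1.43 in NE. BMP4 had 3 in DE and 0 in NE, FGF10 5 in DE and 1 in NE, and FGF20 9 in DE and 6 in NE. CHRD, a BMP antagonist, had 6 in DE and 9 in NE and SHH 0 in DE and 2 in NE. Mesoderm genes had means of 2.57 in DE and 2.07 in NE, with 13 of 28 having more in DE and 7 more in NE. With a score under 1 required in the other lineage, the mesoderm list had 29 contacts in each. MYOD1, a muscle master gene, had 18 in DE and 12 in NE, whereas GATA2 had 1 in DE and 5 in NE.

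Axial patterning genes of the HOX clusters had the highest mean of the 15 lists, 5.95 in DE and 5.62 in NE, with 58 listings shared. Of 39, 16 had more in DE, 13 more in NE and 8 the same number. At a score of 3 or more the sums were 426 in DE and 428 in NE, so the order turned. HOXC11 had 24 in DE and 15 in NE, whereas its neighbour HOXC12 had 3 in DE and 9 in NE. HOXA10 had 4 in DE and 0 in NE, HOXB5 10 in DE and 15 in NE, and HOXC9 2 in DE and 7 in NE. HOXC4 and HOXC5 had the same 11 in each lineage because they were linked to the same contacts. Polycomb genes had means of 1.29 in DE and 2.07 in NE, led by EPOP with 1 in DE and 6 in NE and PHC2 with 6 in DE and 10 in NE, but only 14 of 29 were linked and the order turned with the gene at the other end alone. Pluripotency genes had 1.18 in DE and 1.00 in NE, with KLF4 at 2 in DE and 0 in NE, but 5 contacts in DE and 9 in NE with the gene at the other end alone. The 7 linked housekeeping genes had means of 0.286 in DE and 0.571 in NE.

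**Figure D5:**
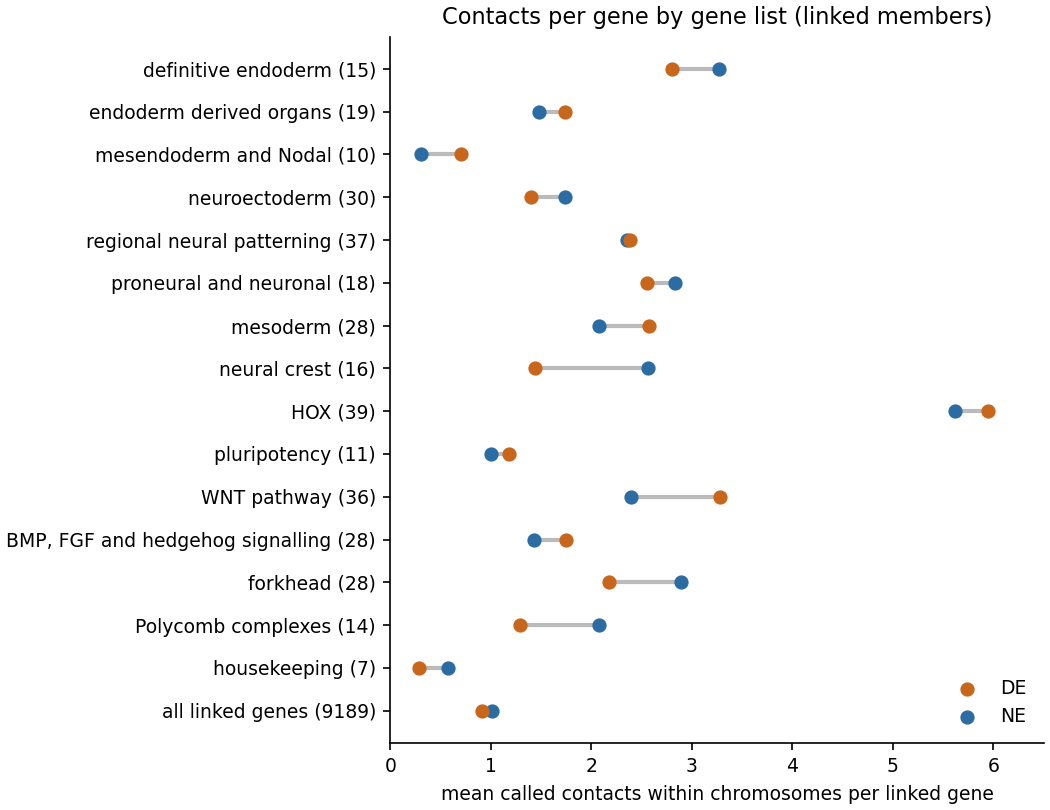
Mean number of called contacts within chromosomes per linked gene in DE and in NE for 15 gene lists and for all linked genes, with the number of linked members in brackets. WNT pathway genes lie furthest to the DE side (3.28 in DE, 2.39 in NE) and neural crest genes furthest to the NE side (1.44 in DE, 2.56 in NE); definitive endoderm genes are at 2.80 in DE and 3.27 in NE.

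Start sites of EOMES, CXCR4 and GSC for endoderm and of PAX6 and ZIC1 for neuroectoderm were linked to no listed contact within chromosomes, so baits within 100 kb of each marker gene were counted as well. Baits near 8 endoderm markers (SOX17, FOXA2, EOMES, CXCR4, GATA6, HHEX, CER1 and GSC) had 185 contacts in DE and 190 in NE, 38 of them shared, and 104 at day 14. Baits near 8 neuroectoderm markers (PAX6, SOX1, SIX3, LHX2, FEZF2, ZIC1, NR2F1 and NCAM1) had 173 in DE and 167 in NE, 10 shared, and 99 at day 14. EOMES, which initiates endoderm formation, had 43 in DE and 27 in NE, with 6 shared, while CXCR4 had 5 in DE and 14 in NE. Counted by baits within 100 kb, as elsewhere in this paragraph, PAX6 had 14 in DE and 17 in NE, LHX2 29 in DE and 20 in NE and SIX3 26 in DE and 37 in NE. Linked by its start, LHX2 had 1 in DE and 2 in NE, the opposite order. OTX2, a forebrain gene that endoderm also uses, had 70 in DE and 96 in NE. Among neural crest markers, FOXD3 had 13 in DE and 4 in NE, TFAP2A 8 in DE and 17 in NE, and SOX10 1 in DE and 0 in NE. Among mesoderm markers, HAND1 had 40 in DE and 54 in NE, MESP1 7 in DE and 4 in NE, and TBX6 4 in each. Among pluripotency markers, PRDM14 had 6 in each and POU5F1 0 in both, and NANOG had no bait near it. Linked by its start, POU5F1 had 0 in DE and 1 in NE. The sums depended on the markers taken: with GATA4 added the endoderm set had 272 in DE and 279 in NE, and with OTX2 and SOX2 added, chosen after their values were seen, the neuroectoderm set had 248 in DE and 269 in NE, the opposite order to that without them.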

How the data were processed

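Poised Enhancer Capture Hi-C libraries were made with the enzyme DpnII from 20 samples of 10 conditions, 2 libraries each. The authors deposited 1 matrix with 1 interaction score column per condition, which per the labels is a CHiCAGO score, and both libraries of a condition are assigned to the same column. The score rises with the evidence for a contact over the background expected at its distance. Coordinates are on GRCh38, per the submitters' processing notes. The aligner, the caller's version and the read depth are not given in the sources used here, so depth is unknown and no interval that needs it is printed. Every listed contact reached a score of 5 in at least 1 column (the lowest top score was 5.00). The deposited score columns were used unchanged.

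Contacts with both ends on 1 chromosome were called at a score of 5. They were classed as DE only, NE only or both, and again with the same number of top-scoring contacts per column. Counts per bait include contacts of any distance, and a pair of baits can be listed from each. The annotation held 19955 protein-coding genes (95 readthrough genes left out), with a start site for 15767, while either annotated end was used for the other 4188. Over the 15 lists, 430 symbols were in the annotation and 1 was not. Members and lists were chosen with earlier results of these data known. Named genes were, per list, the 3 with the largest difference, the 8 with the largest excess each way, the 6 with most contacts in 1 lineage only, the 8 with most shared contacts and fixed lineage genes; other list members are given as examples chosen after their values were seen. The text gives a part of these, and a few named genes are not reported here.

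With 1 pooled column per condition there was no test between conditions, and Wilson 95% intervals cover counting error only. Alternatives were thresholds of 3 and 10, equal numbers of top-scoring contacts, no bait-to-bait contacts, each bait pair once, a score under 1 in the other lineage, no contacts over 1 Mb, other gene links, a tolerance for shared other ends and windows of 1 Mb. The classing was tested on simulated scores. Python 3.11.15, pandas 2.3.3, numpy 2.4.6, scipy 1.17.1 and matplotlib 3.10.9 were used.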

Additional observations from a re-analysis of the deposited data

Results flagged for a closer look

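Contacts between chromosomes, which the comparison of the lineages does not use, also carried calls at a score of 5 or more, 187492 in DE and 155291 in NE. Only 206 of them were called in both, which is 0.110% of those in DE (0.0959 to 0.126%) and 0.133% of those in NE (0.116 to 0.152%), whereas within chromosomes 12.7% of the DE and 11.5% of the NE calls were shared. At a score of 10 or more there were 2979 in DE and 2403 in NE, and 45 were shared.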

How the results depend on the processing

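With a threshold of 3, 18003 contacts were called in both (Jaccard index 0.2125). With 10 the contacts numbered 619 in DE only, 853 in NE only and 190 in both (0.1143), the baits 403, 545 and 231, and the genes 106, 136 and 65. Differences in list means (DE minus NE) at 10 were -0.1333 for definitive endoderm, -0.05263 for endoderm-derived organs, 0.03333 for neuroectoderm, 0.08108 for regional neural patterning, 0.1111 for proneural, 0.1429 for mesoderm, 0 for neural crest, -0.1282 for HOX and 0.07143 for BMP, FGF and hedgehog genes. Fewer contacts pass a threshold of 10, so these means rest on few contacts.

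With a score under 1 required in the other lineage, 10991 contacts were in DE only and 12673 in NE only (Jaccard index 0.1366), 5013 baits and 1392 genes were in both, and the definitive endoderm difference was -0.7333. With the gene at the other end only, differences were 0.1333 for definitive endoderm, 0.1081 for regional neural patterning, 0.03571 for forkhead and 0.1429 for Polycomb genes; the cause was not tested. Counting other ends within 10 kb as shared gave 10219 contacts called in both, and within 50 kb, chosen after seeing the data, 24392. With windows of 1 Mb, 5 of the 8 windows with the largest DE excess lay in one of the top 8. Of 77 counts, the remaining 57 stayed within 1.5 times the value at a threshold of 5. Of 161 list differences, 147 kept the DE share of calls inside its Wilson interval at a threshold of 5, a wide limit for short lists, and 10 of these 147 turned sign and 8 became 0. The 10 were HOX (-0.05128 at a threshold of 3, -0.02564 with a score under 1 in the other lineage), proneural (0.1111 with a score under 1 in the other lineage, 0.05882 without the member that moves the list most), neuroectoderm (0.3 with either end for every gene), pluripotency (-0.3636 with the gene at the other end only) and regional neural patterning (-0.02703 without bait-to-bait contacts, -0.1081 without the margin of 1 kb, -0.1389 without the member that moves the list most, -0.1892 with either end). Neural crest shrank to -0.375 at a threshold of 3 and WNT to 0.02778 with the gene at the other end only. No paired analysis was possible because both libraries of a condition were pooled in 1 column, and leaving out a library was not possible for the same reason. Depth is unknown.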
